A study of Mus musculus with 6 samples.

Results

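The genes described here are 9 glucocorticoid-responsive genes and metallothioneins of brain microvessels, chosen by symbol from the 23183 genes listed in the study: *Nr3c1*, *Hsd11b1*, *Fkbp5*, *Tsc22d3*, *Zbtb16*, *Sgk1*, *Errfi1*, *Mt1* and *Mt2*. All 9 were present in the files and all 9 passed the filter for the test, an average of 1 FPKM or more over the libraries (FPKM values are fragment numbers scaled to transcript length and to library size). RNA sequencing was performed on cerebral microvessels of C57BL/6 mice, 3 WT (TEK-cre, Crif1+/+) and 3 TEKCRIF1 KO (TEK-cre, Crif1 flox/flox), none of them given a treatment. Every mouse carried the Cre recombinase, which the Tek promoter drives in endothelial cells and also in some blood lineages, and which removes *Crif1*, a gene required for mitochondrial oxidative phosphorylation, in KO mice alone. The age and sex of these mice were not given in the sources used here. A microvessel preparation also holds pericytes, smooth muscle cells and astrocyte endfeet, in which the TEK-cre is not designed to act, so each value is a mixture of cell types.

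Glucocorticoids are adrenal steroids that enter cells and bind the glucocorticoid receptor, which is held ready by HSP90 and its co-chaperones and moves to the nucleus after binding. There it binds DNA elements made of the hexamer AGAACA, 3 bases of any kind and the reverse complement of the hexamer, and raises or lowers nearby genes. In brain endothelial cells, glucocorticoids are known to strengthen the barrier and to reduce inflammatory signaling. Metallothioneins are small, cysteine-rich proteins that hold zinc and copper. Their genes respond both to glucocorticoids and to metals, the latter through the transcription factor MTF1, which binds elements with the core TGCACNC or TGCGCNC.

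In KO mice *Fkbp5* and *Zbtb16* were lower than in WT mice at an unadjusted p under 0.05, with no overlap between the groups, while the KO values of the receptor gene *Nr3c1* lay inside the WT range. *Tsc22d3*, *Mt1* and *Mt2* had lower means and *Sgk1*, *Errfi1* and *Hsd11b1* higher means in KO mice, with overlapping groups and no call. The ratio of *Mt2* to *Mt1* was higher in every KO library than in every WT library. No member passed adjustment for the 14247 genes tested. Values below are given in the order of replicates 1, 2 and 3 of each group.

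The targeted gene was checked first. *Crif1* (*Gadd45gip1*) had 18.8, 15.3 and 16.5 FPKM in WT mice and 10.8, 7.54 and 10.4 FPKM in KO mice, and was thus lower in every library labelled KO. Estimated depth was 6300000 to 11600000 fragments per library, with KO 2 lowest. Two-sided limma tests on log2(FPKM + 1) gave 838 genes with an unadjusted p under 0.05 and 0 with an adjusted p under 0.05. Relative to the mean of all libraries, expression was correlated with transcript length at a Spearman coefficient of −0.311 in KO 1, 0.274 in KO 2 and −0.139 in KO 3, against 0.030 to 0.062 in WT libraries. With transcript GC content the coefficient was 0.076, 0.312 and 0.155 in WT libraries and −0.131, −0.251 and −0.024 in KO libraries, so it was above 0 in every WT library and below 0 in every KO library. The correlations are across genes, which are not independent replicates. Shorter transcripts thus tended to have higher values in KO 1 and, less so, in KO 3, and lower values in KO 2. *Mt1* and *Mt2* below are short. Whether this trend comes from the libraries or from their mix of cells was not tested. KO 1 and KO 2 also have column headers without the hyphen found in the remaining 4.

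Endothelial markers were present in every library, at a sum of 768.6 to 1065 FPKM over 7 genes in WT mice and 693.2 to 886.4 in KO mice. Markers of other cells moved too. The sum of 6 astrocyte markers was 574.9 to 671.1 FPKM in WT mice and 430.6 to 477.0 FPKM in KO mice, without overlap. The sums of 4 microglia markers (71.7 to 76.8 against 60.2 to 61.9 FPKM) and 4 fibroblast markers (1186 to 1778 against 783.9 to 1088 FPKM) were also lower in every KO library, so 3 of 10 marker lists did not overlap. All 6 astrocyte and all 4 fibroblast markers had lower means in KO mice, but only *Gfap*, *Gja1*, *Col1a1* and *Col1a2* had no overlap. *Dcn* and *Lum*, the other fibroblast markers, had log2 fold changes of −0.18 and −0.05. The microglia list did not move as 1 group, since 3 of its genes had lower and *P2ry12* higher values in KO mice (log2 fold change 0.52, not called). Of 46 tested markers, 8 had an unadjusted limma p under 0.05, all of them lower: *Cdh5*, *Anpep*, *Gfap*, *Gja1*, *Mobp*, *Mag*, *Col1a1* and *Hbb-bs*. Over all genes tested, 5.88% had such a p, 3.11% lower and 2.77% higher in KO mice. The groups overlapped for *Mag* and *Hbb-bs*. *Hbb-bs* was at 0, 125.9 and 10.6 FPKM in WT mice and at 0 in each KO library (exact two-sided permutation p = 0.4). In lists without a call, the smallest p belonged to *Myh11* and *Tagln* (smooth muscle), *Tubb3* and *Rbfox3* (neuron), *Cx3cr1* and *Csf1r* (microglia), and *Ttr* and *Folr1* (choroid plexus). No marker was at 0 in every library. Choroid plexus markers had a sum of 8766 and 10470 FPKM in KO 1 and KO 3, against 2860 to 3332 FPKM in the other 4 libraries. In such a bulk preparation, fewer cells of a type and less RNA per cell cannot be told apart.

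Upstream sequences were read from RefSeq (GRCm38.p6), which gave a window of 250 bases before a transcription start for 7 of the 9 members, 15 windows in all. The windows of *Mt2* and *Mt1* are shown because the paired genes lie 5.5 kb apart on the same strand of chromosome 8 and their ratio is compared between groups. That of *Sgk1* is the only window among those searched for members that holds the full glucocorticoid element. Both strands were searched. Capitals mark TGCACNC or TGCGCNC in the metallothionein windows and the full glucocorticoid element in the *Sgk1* window, which is 1 of 6 for this gene. The *Mt1* sequence is printed up to the first exon base annotated in GENCODE, which gives 243 of the 250 bases of its window.
Mt2, chr8:94172368-94172617, plus strand: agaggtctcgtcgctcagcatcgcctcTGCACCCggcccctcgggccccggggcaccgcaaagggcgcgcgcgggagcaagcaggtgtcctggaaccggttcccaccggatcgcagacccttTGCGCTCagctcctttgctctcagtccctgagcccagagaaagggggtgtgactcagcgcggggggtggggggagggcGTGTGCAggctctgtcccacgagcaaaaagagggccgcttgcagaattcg
Mt1, chr8:94178839-94179081, plus strand: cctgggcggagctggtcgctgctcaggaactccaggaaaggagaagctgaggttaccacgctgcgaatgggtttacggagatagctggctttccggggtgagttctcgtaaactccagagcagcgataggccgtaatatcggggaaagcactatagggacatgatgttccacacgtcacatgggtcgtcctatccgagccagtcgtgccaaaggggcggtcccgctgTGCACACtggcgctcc
Sgk1, chr10:21993640-21993889, plus strand: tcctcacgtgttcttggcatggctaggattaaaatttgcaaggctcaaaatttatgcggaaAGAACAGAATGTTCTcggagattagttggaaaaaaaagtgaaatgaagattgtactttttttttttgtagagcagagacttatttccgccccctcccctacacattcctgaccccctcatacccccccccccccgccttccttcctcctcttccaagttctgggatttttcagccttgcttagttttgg

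The *Mt2* window held 3 matches to the metal response core, beginning 223, 128 and 50 bases before the RefSeq start. The *Mt1* window held 1, beginning 23 bases before the RefSeq start, which lies past the end of the printed stretch. For *Mt2* the RefSeq start lies before the first GENCODE base (94172664), and the bases between them were not searched. The counts thus depend on the start used and do not describe the whole promoter of either gene. The *Hsd11b1* window also held 1. Of all 32851 RefSeq windows of this length, 21.4% held at least 1 match and 1.26% held at least 3. The full glucocorticoid element was found once, in *Sgk1*, beginning 189 bases before the start, and in 3 of the 32851 windows in all. The shorter hexamer AGAACA, which the full element contains, is found in 16.1% of all windows, and occurred in windows of *Sgk1* and *Tsc22d3*. Neither element was found in the *Fkbp5* window or in those of *Errfi1*. These matches are letters in short windows, and the windows leave out more distant sequence.

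**Figure D1:**
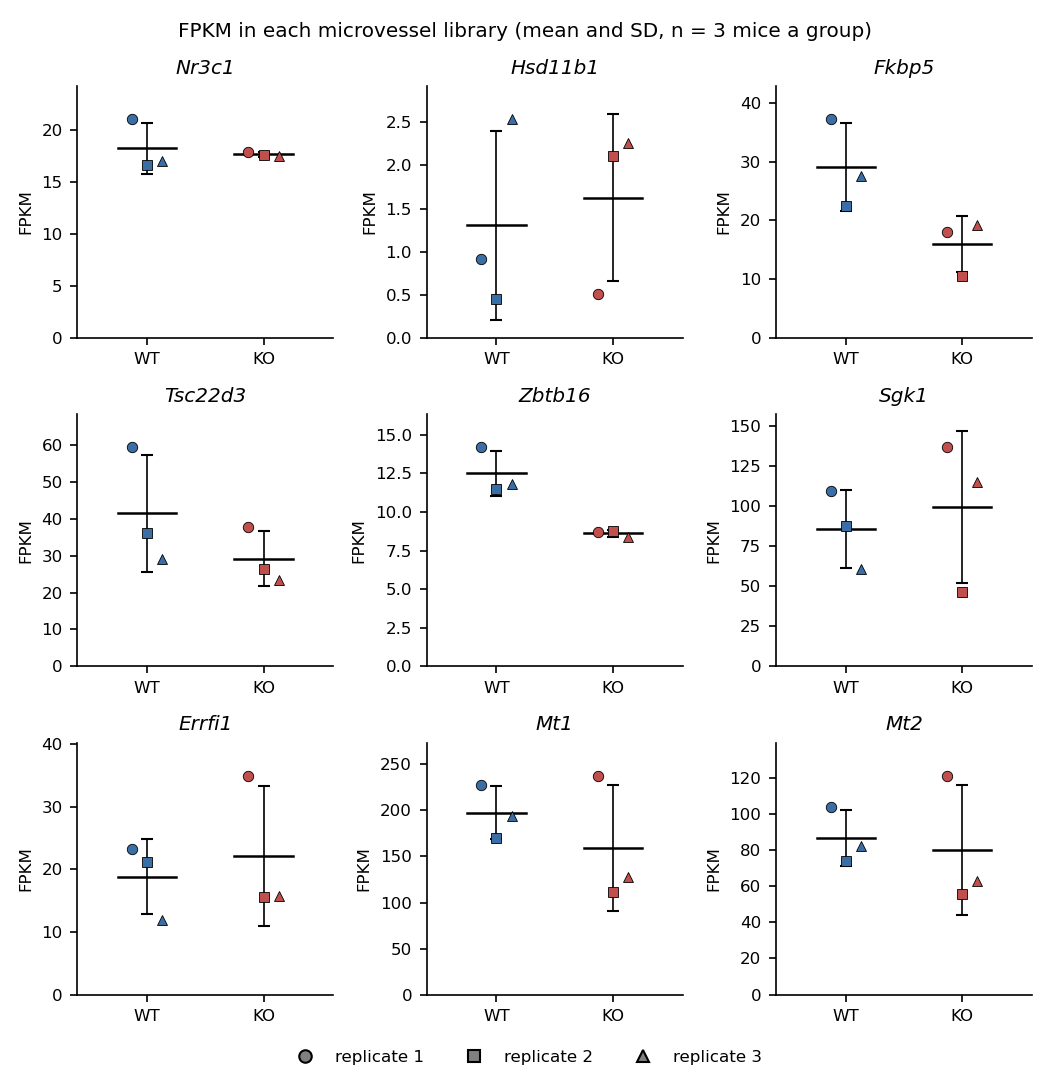
FPKM of the 9 genes (vertical axes, each from 0) in 3 WT (blue) and 3 KO (red) libraries, 1 point per mouse with the shape giving the replicate number, and the mean and SD as bars. *Fkbp5* and *Zbtb16* lie lower in every KO library than in every WT library, and KO 1 is the highest of the 6 libraries for *Sgk1*, *Errfi1*, *Mt1* and *Mt2*.

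The level of the hormone receptor was examined first. *Nr3c1*, on chromosome 18, encodes the glucocorticoid receptor. It had 21.1, 16.7 and 17.0 FPKM in WT mice and 17.9, 17.6 and 17.5 FPKM in KO mice. The KO values sat inside the WT range, and KO 1, KO 2 and KO 3 were closer to each other than the WT libraries were. The means were 18.3 ± 2.45 FPKM in WT and 17.6 ± 0.198 FPKM in KO (SD, n = 3 in each group; exact two-sided permutation p = 1). The log2 fold change was −0.04, with a 95% interval of −0.47 to 0.39 from limma.

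*Hsd11b1* encodes the enzyme that regenerates active corticosterone from its inert form within cells. It was the lowest of the members, at 0.917, 0.454 and 2.54 FPKM in WT mice and 0.509, 2.11 and 2.26 FPKM in KO mice. Each group held both low and high libraries. About 6 to 47 fragments per library lay behind these values, so counting error is large here, and the log2 fold change of 0.21 had a 95% limma interval from −0.83 to 1.26. *Hsd11b2*, whose enzyme inactivates the hormone, had 0 to 1.22 FPKM and a mean too low for the test.

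The direct targets were compared next. *Fkbp5*, on chromosome 17 (chr17:28399094-28517527, minus strand), encodes a co-chaperone that binds the receptor complex and lowers its affinity for hormone, and it is among the genes most reliably raised by glucocorticoids. It had 37.3, 22.4 and 27.6 FPKM in WT mice and 18.1, 10.5 and 19.2 FPKM in KO mice. The lowest WT library was above the highest KO library. The mean fell from 29.1 ± 7.56 FPKM to 15.9 ± 4.72 FPKM (SD, n = 3 in each group), to 54.8% of the WT mean, a difference larger than the SD of either group. The log2 fold change was −0.84 (SE 0.28, 95% interval −1.45 to −0.23; limma p = 0.0121, adjusted p = 0.841), and the exact two-sided permutation p was 0.1, the smallest that 3 mice against 3 allow. Without WT 1, the library with the most *Fkbp5*, the log2 fold change was −0.65 and the call was lost.

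*Zbtb16*, on chromosome 9 (chr9:48654297-48836222, minus strand), encodes the transcription repressor PLZF, whose transcript is strongly induced by glucocorticoids in many cell types. WT mice had 14.2, 11.5 and 11.8 FPKM and KO mice 8.73, 8.77 and 8.35 FPKM. The 3 KO libraries were nearly identical and all lay under the WT range. The KO mean of 8.61 ± 0.233 FPKM was 69.0% of the WT mean of 12.5 ± 1.46 FPKM (SD, n = 3 in each group; exact two-sided permutation p = 0.1). On the log2(FPKM + 1) scale the change was −0.48 (SE 0.20, 95% interval −0.93 to −0.03; limma p = 0.0381 beside the exact p above, adjusted p = 0.841). The direction held under every alternative tried, between −0.54 and −0.40, but the call was lost in 10 of 18, among them the corrections for GC content and transcript length and each fit without a WT library.

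These 2 genes were the members called, 2 of 9, both lower in KO mice. Over all 14247 genes tested, 5.88% had an unadjusted p under 0.05 in either direction, 3.11% lower and 2.77% higher in KO mice. The groups did not overlap with KO lower for the same 2 of 9 members and for 5.70% of all genes tested. The members' count was 0 without WT 1 and 3 without KO 2, where *Sgk1* was added and 13.1% of all genes tested were called (1871 genes). It was 1 with KO 3 as the only KO library, where *Mt1* was called and *Fkbp5* and *Zbtb16* were not. The astrocyte, microglia and fibroblast marker sums, given above, were lower in the same KO libraries, and their part in the lower *Fkbp5* and *Zbtb16* was not tested. The median log2 fold change was −0.19 over the 9 members and −0.01 over all genes tested, and 6 members were lower and 3 higher.

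*Tsc22d3* (chromosome X) encodes GILZ, a mediator of the anti-inflammatory action of glucocorticoids. It had 59.5, 36.1 and 29.1 FPKM in WT mice and 37.8, 26.5 and 23.5 FPKM in KO mice. WT 1 stood above the rest, and KO 1 lay between the higher WT libraries, so the groups overlapped. The means were 41.6 ± 15.9 FPKM and 29.3 ± 7.53 FPKM (SD, n = 3 in each group; exact two-sided permutation p = 0.3). The log2 fold change of −0.46 had a 95% limma interval from −1.10 to 0.18. It was below 0 under every alternative and smallest without WT 1, at −0.17.

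*Sgk1*, on chromosome 10, encodes a kinase that controls ion channels and transporters. Its levels were 109.4, 87.7 and 60.8 FPKM in WT mice and 136.8, 46.1 and 115.3 FPKM in KO mice. KO 2 was the lowest of all 6 libraries and KO 1 the highest, and the SD within KO mice (47.4 FPKM) was several times the difference between the means (13.4 FPKM). The log2 fold change was 0.11 (SE 0.38, 95% limma interval −0.75 to 0.96; exact two-sided permutation p = 0.7). It became 0.58 without KO 2, where it was called (adjusted p = 0.366) in the fit with the raised share of calls given above, and −0.19 without KO 1, so the sign rested on single libraries. KO 1 and KO 3, the KO libraries with high *Sgk1*, also had the high choroid plexus marker sums, whose part in the *Sgk1* values was not tested.

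*Errfi1*, on chromosome 4, encodes MIG6, an inhibitor of the epidermal growth factor receptor. It showed 23.3, 21.2 and 12 FPKM in WT mice and 35, 15.6 and 15.7 FPKM in KO mice. KO 1 was far above the other KO libraries, which lay within the WT range. The log2 fold change of 0.17 (95% limma interval −0.60 to 0.94) turned to −0.20 without KO 1.

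**Figure D2:**
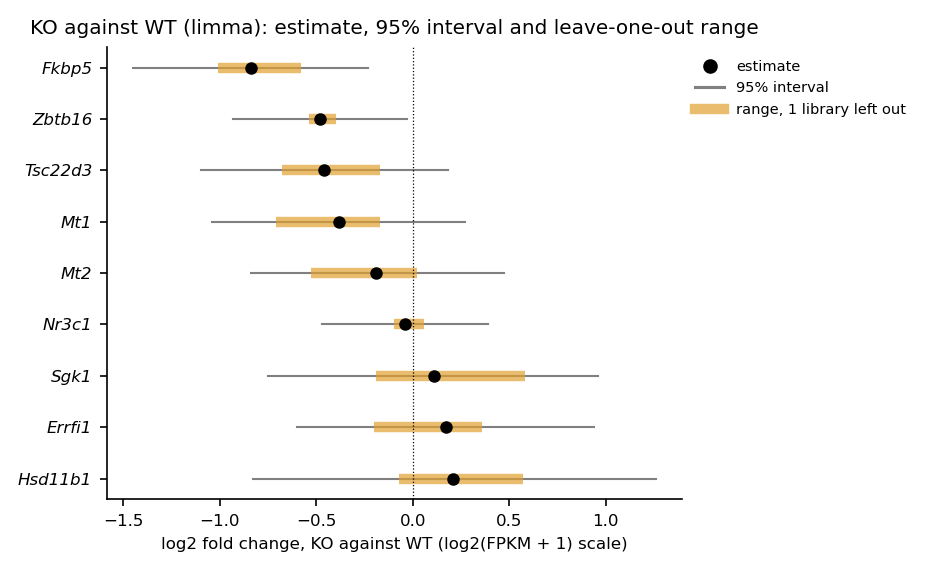
Log2 fold change of each gene, KO against WT, on the log2(FPKM + 1) scale (horizontal axis), with its 95% limma interval (grey) and the range over fits that leave out 1 library (orange). The intervals of *Fkbp5* (−1.45 to −0.23) and *Zbtb16* (−0.93 to −0.03) lie below 0, and the other 7 include 0.

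The metallothioneins were among the 3 members with the highest mean FPKM, beside *Sgk1*, whose order with *Mt2* differed between libraries. *Mt1* (chr8:94179082-94180327, plus strand) had 227.7, 170.6 and 193.7 FPKM in WT mice and 237.8, 111.2 and 128.1 FPKM in KO mice. KO 2 and KO 3 lay under every WT library, while KO 1 was the highest of all. The means were 197.3 ± 28.8 FPKM and 159.0 ± 68.7 FPKM (SD, n = 3 in each group; exact two-sided permutation p = 0.5), with a log2 fold change of −0.38 (95% limma interval −1.04 to 0.27).

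*Mt2* (chr8:94172664-94173568, plus strand) followed *Mt1* across libraries, with 103.9, 73.9 and 82.2 FPKM in WT mice and 121.2, 55.8 and 62.8 FPKM in KO mice. Again KO 1 was highest and KO 2 lowest. Its log2 fold change was −0.19 (95% limma interval −0.84 to 0.47). An antisense gene, *Gm45774*, overlaps *Mt2* on the other strand. The library kit keeps strand, but whether the authors' counting used it is not given in the sources used here, and without it reads of the overlapping genes cannot be told apart.

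Both transcripts are short, 549 and 511 bases in the principal GENCODE transcript. Shorter transcripts tended to have higher values in KO 1 and, less so, in KO 3, and lower values in KO 2. With a trend on transcript length removed from each library, log2(FPKM + 1) of *Mt1* was 8.04, 7.53 and 7.61 in WT mice and 7.51, 6.90 and 7.0 in KO mice. The groups then no longer overlapped, and the log2 fold change of *Mt1* was −0.59 with a call (adjusted p = 0.79). Corrected in the same way, *Mt2* was 6.93, 6.35 and 6.39 in WT mice and 6.5, 5.90 and 6.0 in KO mice, with KO 1 still above the lower WT libraries. Without KO 1, *Mt1* was also called, at −0.71, and *Mt2*, at −0.53, was not. The GC correction gave −0.24 for *Mt1*, with KO 1 still the highest library, and the fit without KO 2 gave −0.17, both without a call. Metallothioneins are abundant in astrocytes, and the part of the lower astrocyte marker sums in these values was not tested. That sum was 430.6, 477.0 and 468.9 FPKM in KO 1, KO 2 and KO 3, and was thus lowest in the library with the most *Mt1* and *Mt2*.

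The ratio of *Mt2* to *Mt1* within a library does not depend on a scaling factor of that library. It was 0.456, 0.434 and 0.424 in WT mice and 0.510, 0.502 and 0.490 in KO mice. The lowest KO ratio lay above the highest WT ratio, and KO 1, which stood apart in the level of both genes, was close to the other KO libraries in their ratio. The mean ratio was 0.438 ± 0.0165 in WT and 0.501 ± 0.00972 in KO mice (SD, n = 3 in each group), 1.14-fold higher, with an exact two-sided permutation p of 0.1. Leaving out each library in turn gave a log2 difference between 0.17 and 0.22, against 0.19 with all of them. The transcripts differ somewhat in GC content, 58.1% for *Mt1* and 55.6% for *Mt2*. On the log2(FPKM + 1) scale the difference was 0.16 with the length correction and 0.15 with the GC correction, alternatives chosen after seeing the data, and the groups did not overlap in either. The principal transcripts share 0 stretches of 50 bases. The antisense overlap named above touches *Mt2* alone.

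**Figure D3:**
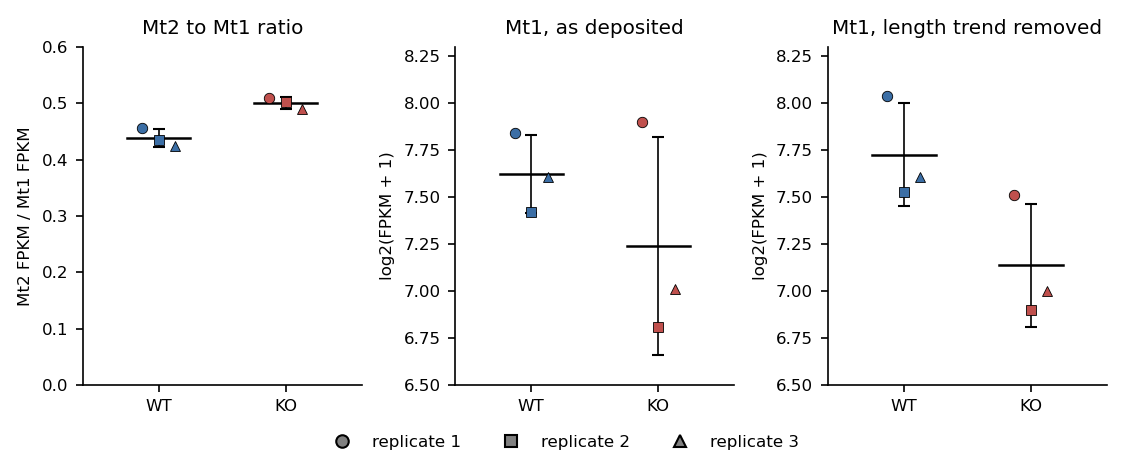
The ratio of *Mt2* to *Mt1* FPKM in each library (left, axis from 0), and log2(FPKM + 1) of *Mt1* as deposited (middle) and with the trend on transcript length removed (right, same axis range), with mean and SD. Ratios are 0.424 to 0.456 in WT and 0.490 to 0.510 in KO mice, and *Mt1* of KO 1 moves from 7.90 to 7.51 with the correction.

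Other genes of metal handling were compared beside the metallothioneins. Of 9 tested genes in a list of other metallothioneins, MTF1 and zinc transporters, 6 were higher and 3 lower in KO mice, 0 were called, and the median log2 fold change was 0.05. *Mt3*, the metallothionein typical of the brain, had 292.9, 289.0 and 349.9 FPKM in WT and 418.3, 314.9 and 356.8 FPKM in KO mice. Its log2 fold change of 0.22 (exact two-sided permutation p = 0.2) was opposite in sign to that of *Mt1*, and the difference between these genes was not tested. *Mtf1* itself was at 3.37, 3.31 and 2.97 FPKM in WT and 3.55, 4.01 and 4.27 FPKM in KO mice, without overlap but not called, beside 5.37% of all genes with every KO value above every WT value. *Slc39a6*, a zinc importer, had the smallest limma p of the list, with a log2 fold change of −0.29 (exact two-sided permutation p = 0.2). *Mt4* was listed at 0 in all 6 libraries.

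The machinery around the receptor was examined with the same test. Among 6 chaperones of the receptor, 3 were higher and 3 lower, 0 were called and the median log2 fold change was 0.03. *Hsp90aa1* (log2 fold change 0.17) and *Stip1* (0.23) had the smallest limma p. Of 7 coactivators and corepressors, 5 were lower and 2 higher, with a median of −0.21 and 0 called. *Ep300*, a coactivator and acetyltransferase, was lower in KO mice without overlap, at 12.6, 10.2 and 11 against 8.22, 10.0 and 8.78 FPKM (log2 fold change −0.29). For steroid access, 4 of 5 genes were tested and 0 called. The drug and steroid exporter gene *Abcb1a* had a log2 fold change of −0.28 and the mineralocorticoid receptor gene *Nr3c2* one of −0.23.

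A list of 20 other genes known to respond to glucocorticoids was tested to see whether the direction of *Fkbp5* and *Zbtb16* was shared. Of these, 9 were higher and 11 lower in KO mice, with a median log2 fold change of −0.08, beside −0.01 over all genes tested. Only 1 was called in each direction. *Cebpb*, a transcription factor of inflammation and metabolism, was lower, at 12, 9.95 and 8.3 FPKM in WT and 9.10, 5.20 and 3.86 FPKM in KO mice (log2 fold change −0.71, limma p = 0.0387, exact permutation p = 0.2, adjusted p = 0.841). *Nfkbia*, the inhibitor of NF-kB that glucocorticoids raise, was higher, at 32.5, 25.5 and 23.4 FPKM in WT and 41.6, 30.2 and 47.1 FPKM in KO mice (log2 fold change 0.52, limma p = 0.0457, exact permutation p = 0.2, adjusted p = 0.841). The groups overlapped for both. *Per1*, a clock gene and rapid target, had means of 22.8 ± 0.420 FPKM in WT and 22.7 ± 10.2 FPKM in KO mice (SD, n = 3 in each group), with KO 1 high at 33.2 and KO 2 low at 12.8 FPKM. *Klf9*, another target, was at 26.9 to 29.1 FPKM in WT and 21.1 to 26.6 FPKM in KO mice, without overlap and not called.

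**Figure D4:**
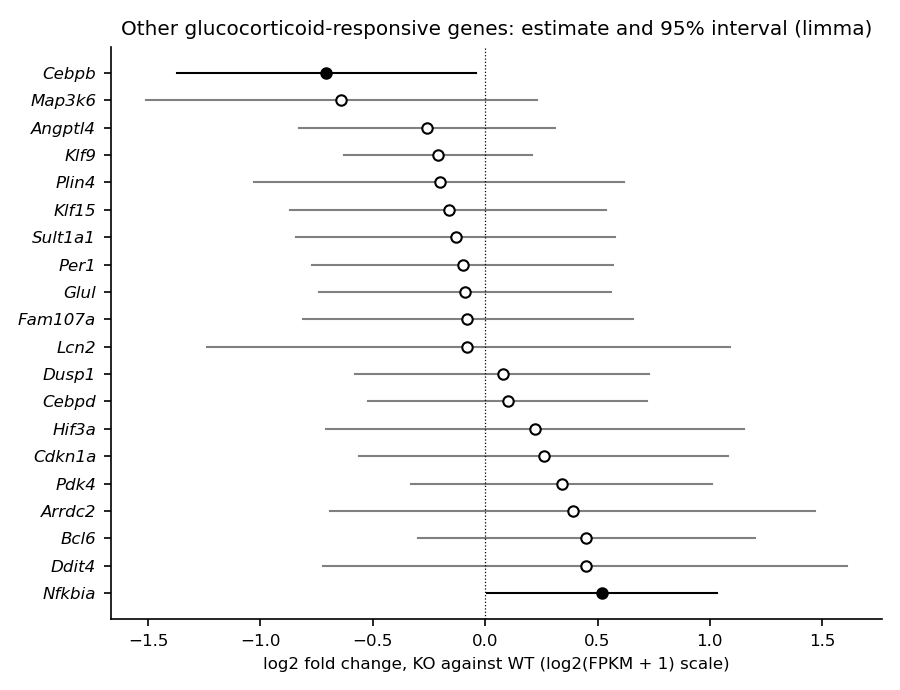
Log2 fold change, KO against WT, on the log2(FPKM + 1) scale (horizontal axis) of 20 other glucocorticoid-responsive genes, with 95% limma intervals. Filled points mark intervals that leave out 0, which are those of *Cebpb* (−0.71) and *Nfkbia* (0.52), and the others lie on both sides of 0.

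Levels per transcript length were then set in order. By mean FPKM over the 6 libraries the members ran from *Mt1* (178.2) through *Sgk1* (92.7), *Mt2* (83.3), *Tsc22d3* (35.4), *Fkbp5* (22.5), *Errfi1* (20.5), *Nr3c1* (18.0) and *Zbtb16* (10.5) to *Hsd11b1* (1.46). *Mt1* was at the 96.4th to 98.4th percentile of the tested genes in every library, and *Hsd11b1* at the 2.12th to 15.4th. *Mt1* exceeded *Sgk1*, *Mt2* exceeded *Tsc22d3*, *Tsc22d3* exceeded *Fkbp5*, *Nr3c1* exceeded *Zbtb16*, and *Zbtb16* exceeded *Hsd11b1* in 6 of 6 libraries. Neighbours that did not differ beyond their spread were *Sgk1* and *Mt2* and also *Fkbp5* and *Errfi1* (each in that order in 4 of 6 libraries) and *Errfi1* and *Nr3c1* (3 of 6). The ranges of *Mt1* and *Sgk1* overlapped in KO mice alone, and those of *Tsc22d3* and *Fkbp5* in WT mice alone. This order pools the groups. By WT means alone, *Mt2* (86.7) and *Sgk1* (86.0) change places, and by KO means alone *Fkbp5* (15.9) comes after *Errfi1* (22.1) and *Nr3c1* (17.6), with overlapping ranges in each case. *Fkbp5* thus stood above *Errfi1* in every WT mouse, and KO 1 and KO 2 had them in the reverse order. The spread between the highest and the lowest library was 1.26-fold for *Nr3c1*, 1.70-fold for *Zbtb16*, between 2.14-fold and 3.54-fold for the other expressed targets and metallothioneins, and 5.60-fold for *Hsd11b1*.

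Across the 6 libraries, which share the depth and length effects described above, log2(FPKM + 1) of *Mt1* and *Mt2* had a Pearson correlation of 0.97, *Fkbp5* and *Zbtb16* one of 0.84, and *Fkbp5* and *Nr3c1* one of 0.51. *Errfi1* and *Fkbp5* were at 0.07. These are descriptions of 6 points that hold both groups. Among the other 14246 genes tested, those most like *Fkbp5* were *Tspan5* (0.993), *Axl* (0.991) and *Ppap2b* (0.989). The closest to *Mt1* were *Cst3* (0.994), *Fermt3* (0.993) and *Csgalnact2* (0.983), with *Mt2* in rank 7 (0.967), and the closest to *Nr3c1* were *Gpr89* (0.977), *H2-L* (0.973) and *Itpripl2* (0.971).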

How the data were processed

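The authors trimmed paired-end reads with FASTX_Trimmer and BBMap, mapped them with TopHat and deposited FPKM values per gene symbol, 1 file for each of 6 libraries. The submitters' processing notes name the build mm10. The annotation and any scaling between libraries are not given in the sources used here, and read counts were not used here. In R 4.3.3, log2(FPKM + 1) of the 14247 genes that averaged 1 FPKM or more was fitted by limma 3.58.1 with a trended prior variance and without further scaling. The Benjamini-Hochberg adjustment ran over all of these genes, and a gene is said to be called where its unadjusted p was under 0.05, while single genes were also compared by exact permutation. The fit was tested on simulated data of the same 14247 genes, in which 172 of 200 genes given a 2-fold change were called and 0 of them passed adjustment. The noise was drawn independently for each gene, without the length and GC trends of the real libraries. The changed genes were drawn from those with higher means, so the share called need not hold for the real data.

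Depth was estimated from the spacing of FPKM values under 0.3, and the floor of 3 fragments on 1 kb, 0.258 to 0.474 FPKM, covers counting error only. Gene positions and transcript lengths came from GENCODE M21 (GRCm38, the same assembly as mm10), with lengths for 22148 of 23183 symbols. Groups follow the sample titles. The study gives 3 mice per group, 1 library each, so p-values measure the spread between these mice. All 9 members and, from each pathway list, the genes called or the 2 with the smallest p were named. *Mtf1*, *Klf9*, *Per1*, *P2ry12*, *Hsd11b2* and *Mt4* were named after their values were seen. The values of 1 gene that this rule names are not reported here. The members and lists were chosen with earlier results of these data known.

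Alternatives were other filters, scalings, a pseudocount of 0.1, no variance trend, a replicate block, corrections for transcript length and GC content (loess, span 0.3), and leaving out libraries.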

Additional observations from a re-analysis of the deposited data

How the results depend on the processing

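With 1 library left out in turn, the number of members called ranged from 0 to 3 (2 with all libraries) and the number of genes called in all from 450, without WT 2, to 1871, without KO 2 (838 with all libraries). The number of members called was 1 with the replicate block and 1 with the GC correction. With KO 3 as the only KO library, an alternative chosen after seeing the data in which the spread within KO comes from WT, 1 member and 1399 genes were called. Filters, scalings, the pseudocount and the variance trend kept *Fkbp5* and *Zbtb16* as the members called. *Fkbp5* was below 0 in all 18 alternatives, from −1.01 to −0.54, and lost its call in 2. Signs turned only for members that were not called. *Nr3c1* went to 0.00 with the length correction, with or without the replicate block, and to 0.06 without WT 1. *Hsd11b1* was −0.07 without WT 2, *Mt2* 0.02 without KO 2, and *Sgk1* −0.12, −0.19 and −0.07 without WT 3, KO 1 and KO 3. *Errfi1* was −0.11 without WT 3, −0.20 without KO 1 and −0.20 with KO 3 alone. Other shifts on leaving out 1 library were −0.10 for *Nr3c1* without WT 2, 0.57 for *Hsd11b1* without WT 3, 0.58 for *Sgk1* and 0.36 for *Errfi1* without KO 2, and −0.53 for *Mt2* without KO 1. The causes were not tested. *Hsd11b1* has no value under the filter at 5 FPKM. The sample titles do not say whether replicate numbers pair the mice. Deviations from the group means correlated at 0.037, 0.027 and 0.002 between same-numbered libraries and at −0.073 to 0.046 between the others. With so few libraries this cannot exclude a pairing. The block moved the genes called from 838 to 871. Depth limits *Hsd11b1*, with about 6 to 47 fragments a library.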
